A study of Danio rerio with 6 samples.

Results

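The miRNAs described here are those of zebrafish that carry the names miR-128, miR-129, miR-153 or miR-219, with any letter or arm suffix, a set proposed under the name of brain miRNAs. They were found by name alone. The rule gave 7 of the 230 mature miRNAs in the table: dre-miR-128, dre-miR-129-5p, dre-miR-129-3p, dre-miR-153a, dre-miR-153b, dre-miR-153c and dre-miR-219, where dre stands for Danio rerio. The small RNA came from whole zebrafish of the wild-type AB strain, with 50 embryos pooled for each library, so the label names where these miRNAs are known from and not a dissected tissue. Embryos had received 1.5 ng of MO-Tbx5a, an antisense morpholino that blocks translation of tbx5a, or 1.5 ng of the control morpholino MO-Ct, at the 1-cell stage. At 48 hours post fertilization (hpf) there was 1 library of MO-Tbx5a and 1 of MO-Ct embryos, and at 24 hpf there were 2 batches of MO-Tbx5a and 2 of MO-Ct embryos. A morpholino acts for a limited time and leaves the gene intact, and small RNA reads do not measure the Tbx5a protein, so the knockdown could not be checked in these libraries.

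A miRNA is a short RNA cut from a hairpin precursor, which guides an Argonaute protein to messenger RNAs that match its seed and lowers their translation or stability. In vertebrates miR-128 is abundant in neurons, and in the mouse it limits neuronal excitability. miR-153 is enriched in brain and, in zebrafish, acts on the synaptic protein Snap25. miR-219 promotes the maturation of oligodendrocytes, the myelin-forming cells of the brain and spinal cord, in mouse and zebrafish. miR-129 is a brain-enriched miRNA of mammals, whose 3p arm has also been tied to the formation of cilia.

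The values are normalized reads: read numbers over the size factor of their library. The deposited values stand for an estimated 1699876 to 3148888 reads on mature miRNAs per library, read from the steps between them. In every library this exceeds the study's own tally of miRNA reads, by a factor that differs between libraries. The true depth is therefore uncertain. In each library 227 to 230 mature miRNAs were detected. miR-430, the family that clears maternal messenger RNA in the early embryo, took 5.15% of the normalized reads in the MO-Tbx5a-labelled library and 15.2% in the MO-Ct-labelled library at 48 hpf, against 46.0% to 58.7% in the 4 libraries at 24 hpf. The sources of the study do not give 1 direction for the libraries of 48 hpf. The fold changes the paper selects, and a longer supplementary list, run opposite to the sample labels for every miRNA but miR-7b. miR-153a and miR-153c are in that list and run opposite too. Elsewhere the paper treats miR-219-5p as lowered at 48 hpf, which is the direction of the labels for miR-219. Neither list holds miR-219. The paper also reports that quantitative RT-PCR, in independent injection experiments, bore out most of the changes it checked. Its tally of miRNA reads ranks the libraries of 24 hpf as the estimated reads do, and those of 48 hpf in reverse. Which is right could not be settled from these reads, so every difference between these libraries has the direction of the labels. Each turns round if the labels are crossed. Stage and the batches collected at each stage cannot be told apart. In whole embryos, fewer cells of a type and less RNA per cell cannot be told apart either.

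The members come from 10 precursors, all of which matched a gene of the RefSeq annotation of assembly GRCz12tu, where their surroundings were read. The 3 miR-153 precursors each lay within the span of a gene of 1 small family: mir-153a in ptprn2, mir-153b in ptprnb and mir-153c in ptprna, which encode phosphatase-like proteins of secretory vesicles. mir-128-1 lay within r3hdm1 and mir-128-2 within arpp21. mir-129-1 lay within a long noncoding RNA gene. No gene spanned mir-129-2, which lies between hsd17b12b and ttc17, or the 3 miR-219 precursors. miR-128 has 2 precursor rows, miR-129-5p 2 and miR-219 3. The rows of a mature miRNA were at most 1.496% apart, and their mean was used. The miR-153 copies are near-identical in sequence, and with mapping at 95% identity a read of 1 copy may have been given to another. It may also have been counted for more than 1 copy, as the precursor rows of a mature miRNA each hold nearly the same value. Both the split between the copies and their sum are therefore uncertain.

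Together the members took 1.15% of the normalized reads in the MO-Tbx5a-labelled library at 48 hpf and 0.773% in the MO-Ct-labelled library. In the 4 libraries of 24 hpf they took 0.200% to 0.253%. As a share, the members were thus higher in both libraries of 48 hpf than in any of 24 hpf, while the miR-430 share moved the other way. Its part in the result was not tested. The sum of the members' normalized reads was 12259 in the MO-Tbx5a-labelled library and 9163 in the MO-Ct-labelled library at 48 hpf, with values at 24 hpf of 6377 and 6541 for MO-Tbx5a and 7599 and 6767 for MO-Ct.

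dre-miR-128 was the most abundant member in every library, with ranks of 26 to 38 among the 230 mature miRNAs. At 48 hpf its level was 7048 normalized reads in the MO-Tbx5a-labelled library and 4502 in the MO-Ct-labelled library. At 24 hpf it was 3856 and 3471 for the MO-Tbx5a batches, against 4470 and 3633 for MO-Ct. The MO-Tbx5a-labelled library at 48 hpf stood above all others, whereas the MO-Ct-labelled library lay just above the highest batch of 24 hpf.

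The 3 copies of miR-153 did not share 1 profile. miR-153a had 741 normalized reads in the MO-Tbx5a-labelled library and 360.0 in the MO-Ct-labelled library at 48 hpf, with values at 24 hpf of 253 and 211 for MO-Tbx5a and 249 and 199 for MO-Ct. dre-miR-153c had 2172 in the MO-Tbx5a-labelled library and 1170 in the MO-Ct-labelled library at 48 hpf, with values at 24 hpf of 438 and 495 for MO-Tbx5a and 705 and 648 for MO-Ct. Both were higher in the 48 hpf libraries than in any library of 24 hpf, and of this pair miR-153c alone separated the morpholinos at 24 hpf, with both MO-Tbx5a batches below both MO-Ct batches. miR-153b had 921 in the MO-Tbx5a-labelled library and 1452 in the MO-Ct-labelled library at 48 hpf, with values at 24 hpf of 1192 and 1371 for MO-Tbx5a and 1149 and 1099 for MO-Ct. Its 48 hpf libraries were the lowest and the highest of the 6, so the stages overlapped, while at 24 hpf both MO-Tbx5a batches lay above both MO-Ct batches.

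dre-miR-219 had 1251 normalized reads in the MO-Tbx5a-labelled library and 1629 in the MO-Ct-labelled library at 48 hpf. At 24 hpf its levels were 621 and 978 for the MO-Tbx5a batches, against 998 and 1175 for MO-Ct. It was higher in both libraries of 48 hpf than in any of 24 hpf. Within 24 hpf both MO-Tbx5a batches lay below both MO-Ct batches, although the higher MO-Tbx5a batch came within a few percent of the lower MO-Ct batch and stood 1.58-fold above its own partner.

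The arms of miR-129 were the rarest members. dre-miR-129-5p had 114 normalized reads in the MO-Tbx5a-labelled library and 42.4 in the MO-Ct-labelled library at 48 hpf, with values at 24 hpf of 13.1 and 11.6 for MO-Tbx5a and 23.9 and 9.19 for MO-Ct. These stand for 208 and 91 reads at 48 hpf and for only 7 to 18 reads at 24 hpf, where the MO-Ct batches differed 2.61-fold. dre-miR-129-3p had 12.6 in the MO-Tbx5a-labelled library and 7.46 in the MO-Ct-labelled library at 48 hpf, with values at 24 hpf of 3.74 and 2.69 for MO-Tbx5a and 5.32 and 3.68 for MO-Ct. With 2 to 4 reads in each library of 24 hpf and only 1 library at 10 normalized reads or more, miR-129-3p did not pass the filter on low values and was not tested. The 5p arm had the higher value in all 6 libraries. At 48 hpf it was 9.04 times the 3p arm in the MO-Tbx5a-labelled library (95% counting interval 5.87 to 14.6) and 5.69 times in the MO-Ct-labelled library (3.32 to 10.4). At 24 hpf it was 2.50 to 4.50 times, with intervals of 0.666 to 34.5 and 1.19 to 23.7 for MO-Tbx5a and 1.48 to 18.3 and 0.721 to 10.9 for MO-Ct. The first MO-Tbx5a and the second MO-Ct interval hold a ratio of 1. All overlap those of 48 hpf, so no change of the ratio with stage is shown. Intervals of this kind cover counting error only, since PCR copies are not independent molecules. They rest on the estimated reads, which exceed the study's own tally of miRNA reads, and would be wider at that depth.

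**Figure D1:**
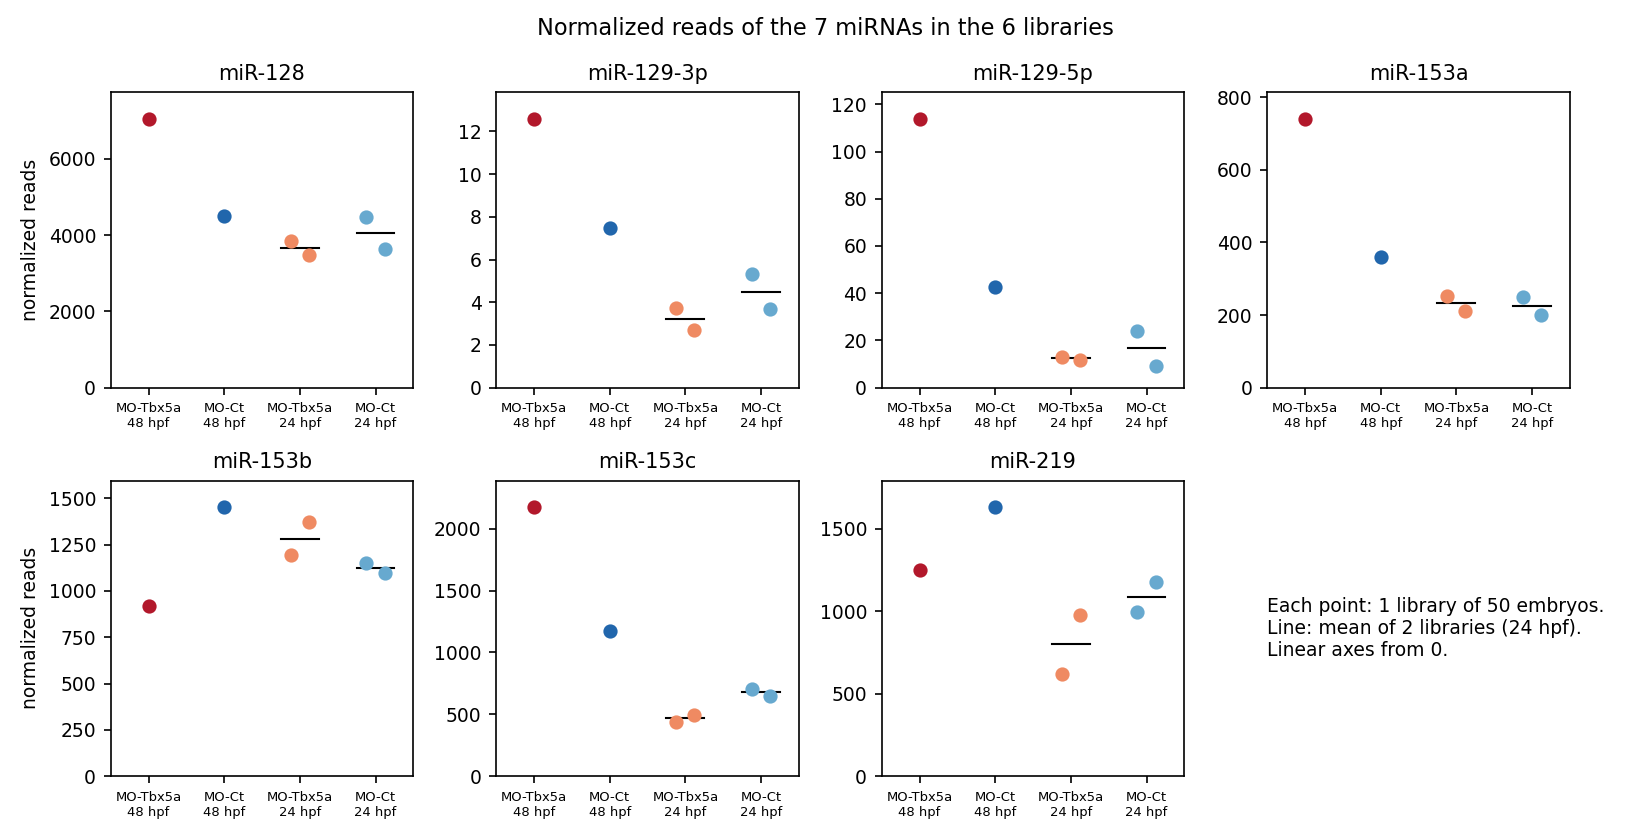
Normalized reads of the 7 members in each of the 6 libraries, on linear axes from 0, with 1 point per library and a line at the mean of the 2 batches of each group at 24 hpf. miR-128, miR-129-5p, miR-129-3p, miR-153a, miR-153c and miR-219 sit higher in both 48 hpf libraries than in the 4 of 24 hpf, whereas the 2 libraries of 48 hpf enclose all others for miR-153b.

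The first comparison asked how the members differed between 48 and 24 hpf, with both morpholinos in 1 fit. miR-153a, miR-153c and miR-129-5p rose with stage, miR-128 and miR-219 lay higher without passing the test, and miR-153b had nearly the same mean at both stages. limma was fitted to log2 of the normalized reads plus 2 with the morpholino as a second term, over the 214 miRNAs that reached 10 normalized reads in 2 libraries or more, and p-values were adjusted by Benjamini-Hochberg over all of them. The plus 2 understates the change of low miRNAs. The p-values measure the spread that this fit leaves among 2 libraries at 48 hpf and 4 at 24 hpf, which holds the spread between batches and any difference of the stage change between the morpholinos.

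Of the 6 members tested, 3 were called, all higher at 48 hpf, where 18.7% of the miRNAs tested were called higher and 33.6% lower, 52.3% in all. The median log2 change was 0.91 over the 6 members and -0.29 over all 214. miR-153c averaged 1671 normalized reads at 48 hpf and 571 at 24 hpf, a log2 change of 1.504 ± 0.32 (SE, limma, adjusted p = 0.00710). miR-153a averaged 550 at 48 hpf and 228 at 24 hpf, a log2 change of 1.18 ± 0.28 (SE, limma, adjusted p = 0.0114). For miR-129-5p the log2 change was 2.20 ± 0.53 (SE, limma, adjusted p = 0.0115), with a 95% interval of 0.94 to 3.45. Without the MO-Tbx5a-labelled library at 48 hpf it was 1.38, with an adjusted p of 0.0581 by limma, where all alternatives for miR-129-5p ranged from 1.20e-06 to 0.0607.

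miR-128 averaged 5775 normalized reads at 48 hpf and 3857 at 24 hpf, a log2 difference of 0.55 ± 0.23 (SE) with an adjusted p of 0.0789 by limma. miR-219 averaged 1440 at 48 hpf and 943 at 24 hpf, a log2 difference of 0.63 ± 0.23 (SE) with an adjusted p of 0.0528 by limma. Both missed the threshold on the deposited values. For miR-153b the log2 difference was -0.05 ± 0.23 (SE, limma, adjusted p = 0.861), with a 95% interval of -0.60 to 0.50. Without the MO-Ct-labelled library at 48 hpf, 6 members were called where 149 miRNAs in all were (55 higher, 94 lower), 5 of the members higher and miR-153b lower with a log2 change of -0.47 (limma, adjusted p = 0.0428, with a range of 0.00362 to 0.969 over its alternatives). By the normalized reads, 5 of the 6 members tested had both 48 hpf libraries above all 4 of 24 hpf, where 25.2% of the 214 miRNAs did so and 39.7% lay below.

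The stage values moved with the scaling. The median log2 change of all miRNAs tested was -0.29 on the deposited values, 0.03 under median-ratio scaling, 1.11 when scaled to library totals and 0.21 when scaled to totals without miR-430. A scaling shifts all miRNAs of a library alike, so the distance of a member from that median is nearly fixed by construction and is given as its position only. miR-128 lay 0.83 to 0.84 above the median, miR-219 0.91 to 0.93, miR-153a 1.45 to 1.47, miR-153c 1.78 to 1.79, miR-129-5p 2.39 to 2.49 and miR-153b 0.22 to 0.24, all on the log2 scale. On its own scale miR-153b had log2 values of 0.26, 1.34 and 0.43 under the 3 other scalings, so its sign depends on the choice. Under library totals all 7 members were called higher, as were 154 of the 221 miRNAs then tested. miR-128 and miR-219 were called higher under each of the 3 other scalings. In the same order the adjusted p by limma was 0.0299, 0.00204 and 0.00508 for miR-128 and 0.0222, 0.00263 and 0.00822 for miR-219. Of the 216 miRNAs tested, 53 were called higher under median-ratio scaling and 63 with totals without miR-430.

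Set apart by morpholino, the stage differences of most members had higher values in the embryos labelled MO-Tbx5a. The log2 difference of miR-153c between 48 and 24 hpf was 2.22 in MO-Tbx5a and 0.79 in MO-Ct embryos. For miR-153a it was 1.67 in MO-Tbx5a and 0.69 in MO-Ct embryos, for miR-128 0.95 in MO-Tbx5a and 0.16 in MO-Ct embryos, and for miR-129-5p 3.01 in MO-Tbx5a and 1.38 in MO-Ct embryos. miR-219 differed little between the morpholinos, at 0.68 in MO-Tbx5a and 0.59 in MO-Ct embryos. miR-153b had opposite signs, at -0.47 in MO-Tbx5a and 0.37 in MO-Ct embryos. Each of these rests on 1 library at 48 hpf and has no replicate check there. The stage difference of MO-Tbx5a minus that of MO-Ct embryos was also taken with the 48 hpf labels exchanged. It was -0.51 for miR-128, -1.14 for miR-129-5p, -1.09 for miR-153a, -0.36 for miR-153c and 0.47 for miR-153b. The order of the morpholinos thus turns with the labels. For miR-219 it was 0.85, so its small difference also rests on the labels.

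**Figure D2:**
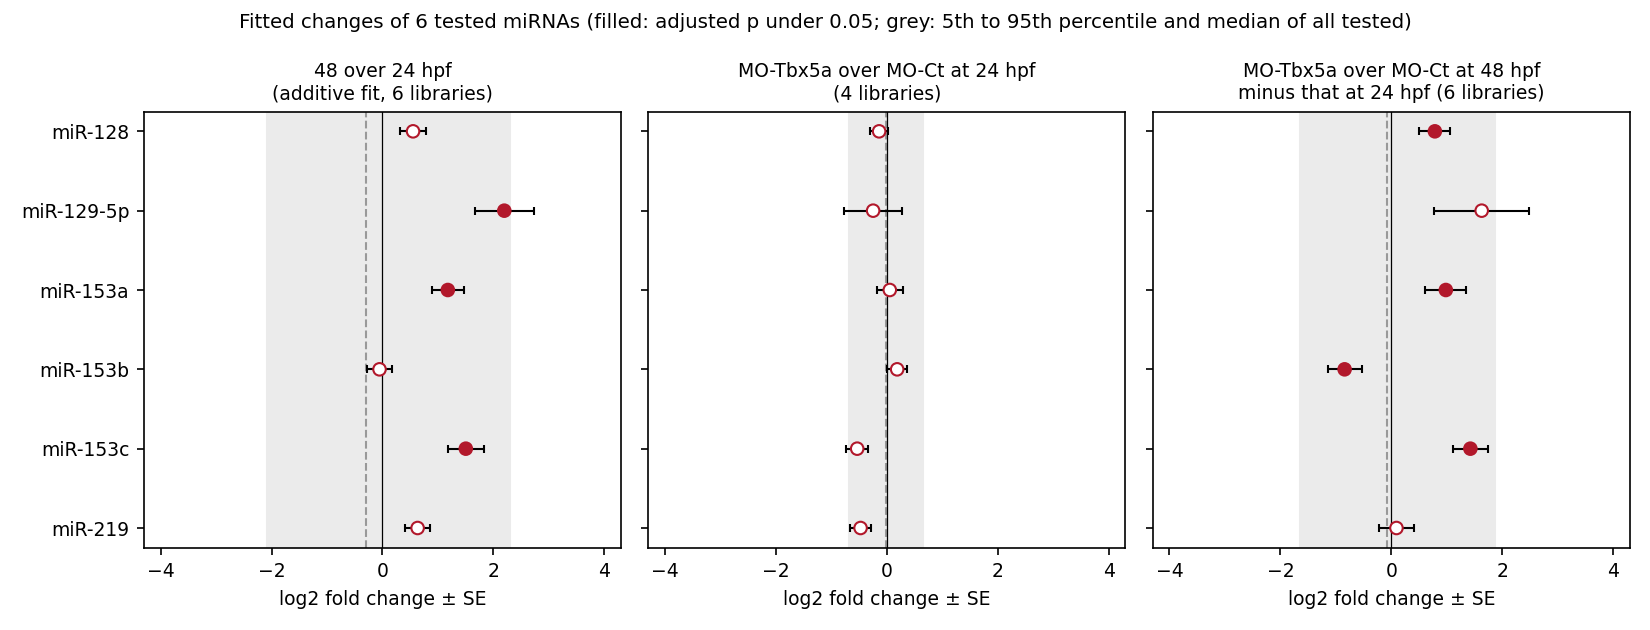
Fitted log2 changes of the 6 members tested, with bars of 1 SE from limma, for 48 over 24 hpf, for MO-Tbx5a over MO-Ct at 24 hpf, and for the difference of the morpholino changes between the stages. Filled points have an adjusted p under 0.05, and grey marks the 5th to 95th percentile and the median of all miRNAs tested. miR-153c lies at 1.504 for stage, at -0.53 between morpholinos at 24 hpf and at 1.43 for the difference between stages.

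The second comparison set MO-Tbx5a against MO-Ct embryos at 24 hpf, with 2 batches each, to ask which members differed after injection against tbx5a. None of the 6 members tested passed an adjusted p of 0.05 by limma, and 2 had an unadjusted p under 0.05, where 7.62% of the 210 miRNAs tested passed (3.33% higher, 4.29% lower) and 44 had such an unadjusted p. The members' median log2 change was -0.19 and that of all tested -0.01. Here limma took the spread almost wholly from a trend over all miRNAs tested, so each SE and p-value holds little of the member's own batch spread. miR-153c averaged 467 ± 40.6 normalized reads in MO-Tbx5a and 676 ± 40.3 in MO-Ct embryos (SD, n = 2 each), a log2 difference of -0.53 ± 0.20 (SE, limma, adjusted p = 0.0642). Under median-ratio scaling miR-153c had -0.61 (limma, adjusted p = 0.0458). Its adjusted p by limma was 0.174 with library totals and 0.157 with totals without miR-430. The study's own list for 24 hpf, from a count model, holds miR-153c as lowered. miR-219 averaged 799 ± 253 in MO-Tbx5a and 1087 ± 126 in MO-Ct embryos (SD, n = 2 each), a log2 difference of -0.47 ± 0.18 (SE, limma, adjusted p = 0.0762). Without the second MO-Tbx5a batch the value of miR-219 was -0.80 (limma, adjusted p = 0.0241, with a range of 0.00218 to 0.964 over its alternatives), and without the first it was -0.15.

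The other members differed less between the morpholinos at 24 hpf. miR-128 averaged 3664 ± 273 normalized reads in MO-Tbx5a and 4051 ± 592 in MO-Ct embryos (SD, n = 2 each), a log2 difference of -0.14 (limma, adjusted p = 0.672). miR-153b averaged 1282 ± 127 in MO-Tbx5a and 1124 ± 35.4 in MO-Ct embryos (SD, n = 2 each), a log2 difference of 0.19 (limma, adjusted p = 0.598). For miR-153a and miR-129-5p the log2 differences were 0.05 and -0.25, with adjusted p of 0.902 and 0.806 by limma. By the normalized reads the batches of the morpholinos did not overlap for miR-153c and miR-219, which were lower in MO-Tbx5a embryos, and for miR-153b, which was higher. Of all 210 miRNAs tested, 29.5% were lower and 22.9% higher in this sense, so 3 of 6 is near the background.

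The third comparison set the same morpholinos side by side at 48 hpf, with 1 library each and therefore with no test on replicates. In the MO-Tbx5a-labelled library, 5 of the 7 members were higher than in the MO-Ct-labelled library and 2 were lower. On the log2 scale with 2 added, 2 of 7 members were at least 2-fold higher and 0 were at least 2-fold lower, where 16.4% of all miRNAs compared were higher and 9.13% lower by that much, 25.6% in all. The median log2 ratio was 0.65 over the members and -0.06 over all miRNAs compared.

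The ratio of normalized reads between the libraries labelled MO-Tbx5a and MO-Ct was 2.68 for miR-129-5p (95% counting interval 2.09 to 3.47) and 2.06 for miR-153a (1.88 to 2.25). It was 1.86 for miR-153c (1.76 to 1.95) and 1.57 for miR-128 (1.52 to 1.61). It was 1.69 for miR-129-3p (0.853 to 3.42), whose interval holds a ratio of 1. On the other side it was 0.634 for miR-153b (0.597 to 0.673) and 0.768 for miR-219 (0.728 to 0.81). The counting intervals leave out the spread between batches, which at 24 hpf had an SD of 0.44 log2 units over miRNAs in MO-Tbx5a and 0.39 in MO-Ct embryos. The log2 ratio of miR-219 between the 48 hpf libraries, -0.38, was no larger than that spread. That spread is 1 SD over 210 miRNAs of all levels and not that of a single member. A ratio beyond it, as for miR-128 (0.65) and miR-153b (-0.66), is therefore not set apart from batch differences. The same holds for miR-129-5p (1.42), miR-153a (1.04), miR-153c (0.89) and miR-129-3p (0.755), each from 1 library against 1. Between the MO-Ct batches of 24 hpf, second over first, the log2 ratio of miR-129-5p was -1.38.

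Whether the morpholino difference itself differed between the stages was tested with the interaction term of limma, where the lone libraries of 48 hpf are assumed to vary like those of 24 hpf. In this fit limma took the spread wholly from a trend over all miRNAs tested. Each SE and p-value therefore holds that pooled spread and not the batch spread of the member itself. Of the 6 members tested 4 passed, 3 with a higher and 1 with a lower value at 48 hpf, where 15.9% of the 214 miRNAs tested were higher and 17.3% lower, 33.2% in all. The value was 1.43 ± 0.32 for miR-153c (SE, limma, adjusted p = 0.000101) and 0.98 ± 0.37 for miR-153a (SE, limma, adjusted p = 0.0269). It was 0.79 ± 0.28 for miR-128 (SE, limma, adjusted p = 0.0215) and -0.84 ± 0.31 for miR-153b (SE, limma, adjusted p = 0.0243). miR-129-5p, at 1.63 ± 0.86 (SE, limma, adjusted p = 0.141), and miR-219, at 0.09 ± 0.31 (SE, limma, adjusted p = 0.829), did not pass. With the 48 hpf labels exchanged 2 members passed, miR-153a at -1.09 and miR-219 at 0.85, where 48 of all 214 miRNAs did. The calls also rest on every batch of 24 hpf. With any batch left out, only 1 pair of batches was left to give the spread. Fewer members then passed, and fewer of all miRNAs, and the cause was not tested. The values then ranged from 1.34 to 1.51 for miR-153c and from 0.83 to 1.14 for miR-153a. They ranged from 0.64 to 0.94 for miR-128 and from -0.94 to -0.74 for miR-153b.

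The proportions of the miR-153 copies within a library need no scaling between libraries. In the MO-Tbx5a-labelled library at 48 hpf miR-153c made up 56.7% of the miR-153 reads, miR-153b 24.0% and miR-153a 19.3%. In the MO-Ct-labelled library miR-153c made up 39.2%, miR-153b 48.7% and miR-153a 12.1%. miR-153c was thus the leading copy in the MO-Tbx5a-labelled library only, and miR-153b led in the other 5 libraries. At 24 hpf miR-153c made up 23.3% and 23.8% with MO-Tbx5a and 33.5% and 33.3% with MO-Ct, while miR-153b made up 63.3% and 66.0% with MO-Tbx5a and 54.6% and 56.5% with MO-Ct.

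The ratio of miR-153c to miR-153b was 2.36 in the MO-Tbx5a-labelled library (95% counting interval 2.23 to 2.50) and 0.806 in the MO-Ct-labelled library (0.765 to 0.85) at 48 hpf. At 24 hpf it was 0.367 (0.315 to 0.427) and 0.361 (0.327 to 0.398) in the MO-Tbx5a batches and 0.613 (0.55 to 0.684) and 0.589 (0.536 to 0.648) in the MO-Ct batches. At 24 hpf the intervals of the batches of a morpholino overlapped, and those of the morpholinos did not. As miR-153c was lower and miR-153b higher in both MO-Tbx5a batches, their ratio had to separate and adds no support of its own. The intervals cover counting error only and take the reads of the copies as separate. At 48 hpf the ratio was higher in the MO-Tbx5a-labelled library. With the labels exchanged it would be 0.806 for MO-Tbx5a and 2.36 for MO-Ct, the order of 24 hpf, so whether the order differs between the stages cannot be told. With 2 batches against 2, an exact permutation test of this ratio at 24 hpf cannot give a two-sided p below 0.333, which is the value it gave. The summed miR-153 reads were 3834 in the MO-Tbx5a-labelled library and 2982 in the MO-Ct-labelled library at 48 hpf, with values at 24 hpf of 1883 and 2078 for MO-Tbx5a and 2102 and 1946 for MO-Ct, so the sum overlapped between the morpholinos at 24 hpf where the ratio did not.

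**Figure D3:**
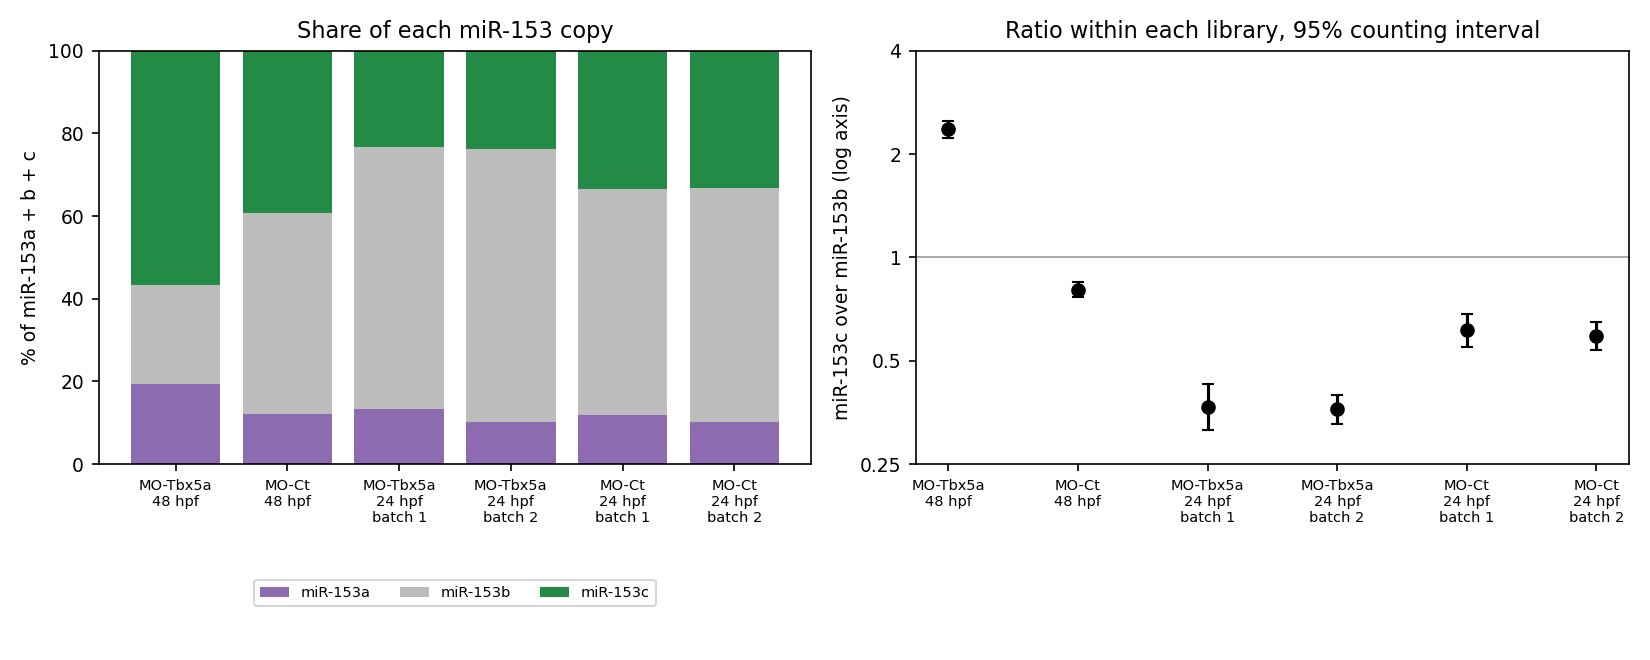
Left, the share of miR-153a, miR-153b and miR-153c in the summed miR-153 reads of each library. Right, the ratio of miR-153c to miR-153b in each library on a log axis, with 95% counting intervals. The ratio is 2.36 in the MO-Tbx5a-labelled library at 48 hpf and below 1 in the other 5.

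Other sets of miRNAs, taken by number, give the surroundings of these values. Of 13 other brain miRNAs 12 were tested for stage, 7 rose at 48 hpf and none fell by limma, with a median log2 change of 1.43, against 0.91 for the members and -0.29 for all tested. miR-9-5p, which regulates neural progenitors, was the most abundant. It had 44772 normalized reads in the MO-Tbx5a-labelled library and 11063 in the MO-Ct-labelled library at 48 hpf, with values at 24 hpf of 1832 and 2300 for MO-Tbx5a and 2678 and 2912 for MO-Ct, with a stage change of 3.22 ± 0.49 (SE, limma, adjusted p = 0.00249). For miR-138 the stage change was 1.64 ± 0.31 (SE, limma, adjusted p = 0.00524). At 48 hpf 6 of 12 other brain miRNAs were at least 2-fold higher in the MO-Tbx5a-labelled library and 0 at least 2-fold lower, with a median log2 ratio of 1.02.

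Of the remaining lists, those of muscle, skin and sensory organs mark tissues that a whole embryo also holds, and miR-430 is the family of maternal clearance. All 4 miR-430 miRNAs fell at 48 hpf, with a median log2 change of -3.85. All 4 skin miRNAs (miR-203 and miR-205) fell too, with a median of -1.22 that became 0.18 when scaled to library totals. Of 8 muscle miRNAs 2 rose, among them miR-133a-3p with a log2 change of 1.97 (limma, adjusted p = 0.000324), and 2 fell, among them miR-206 with -0.82 (limma, adjusted p = 0.00873), which became 0.58 when scaled to library totals. None of the 4 sensory organ miRNAs passed by limma, or had an unadjusted p under 0.05, with a median of 0.62. Between the 48 hpf libraries the median log2 ratio of MO-Tbx5a over MO-Ct was 1.21 for the sensory organ list, of which 4 of 4 were at least 2-fold higher, -0.59 for muscle, -0.93 for skin and -1.71 for miR-430, of which 3 of 4 were at least 2-fold lower. The medians of these lists thus lay away from 0 in the comparison in which most members were higher, and their part in the members' result was not tested. At 24 hpf none of these 5 lists held a called miRNA by limma, with 9 at an unadjusted p under 0.05. They had 11 other brain and 8 muscle miRNAs tested, and 4 each of miR-430, sensory organs and skin. Of all 210 miRNAs tested, 7.62% were called and 44 had such an unadjusted p. The medians of the lists lay between -0.28 and 0.24.

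**Figure D4:**
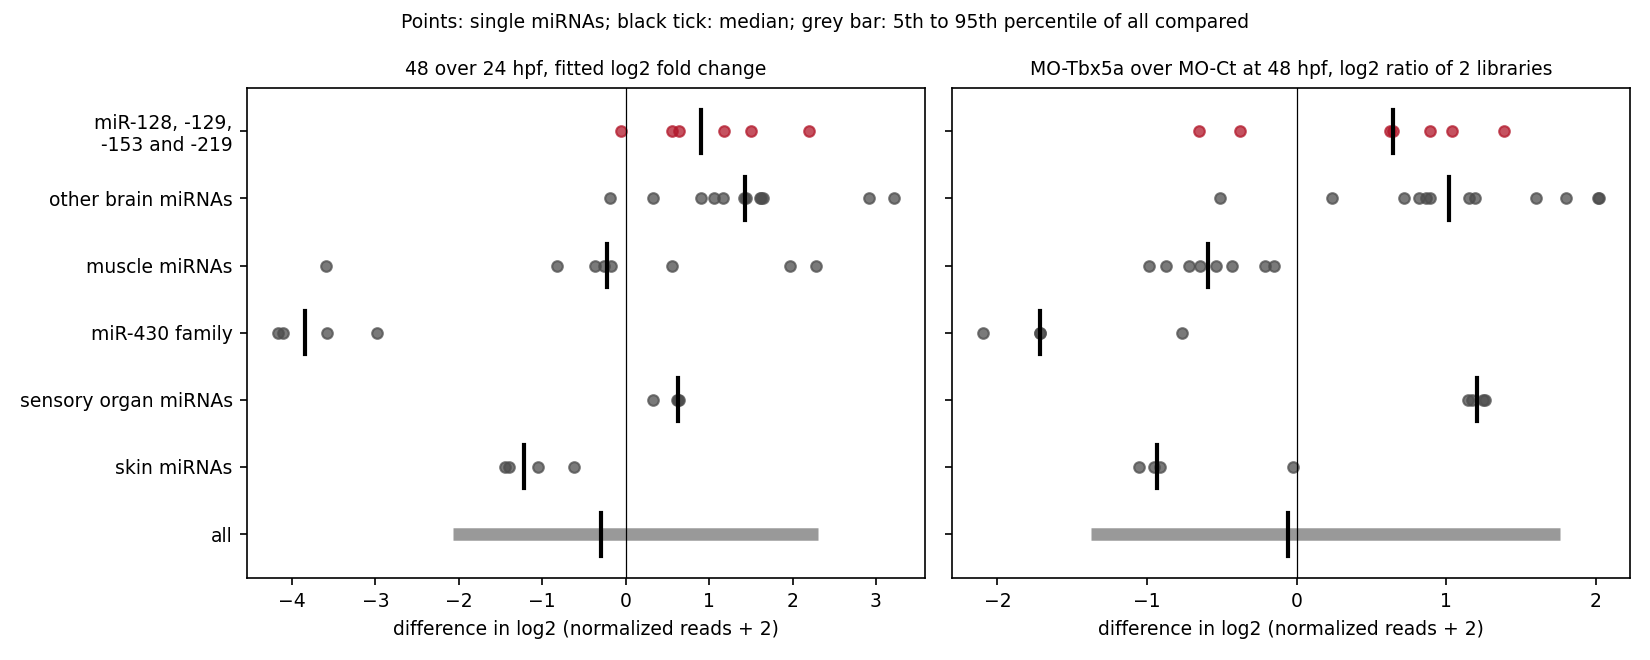
Log2 differences of each miRNA of the members and of the 5 other lists, for 48 over 24 hpf (left) and for the MO-Tbx5a-labelled over the MO-Ct-labelled library at 48 hpf (right), with a black tick at each median and a grey bar from the 5th to the 95th percentile of all miRNAs. The other brain miRNAs have a median of 1.43 for stage and 1.02 between the 48 hpf libraries, the members 0.91 and 0.65, and miR-430 -3.85 and -1.71.

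The likeness of profiles was measured as the root mean square difference of log2 (normalized reads plus 2), centred on each miRNA's mean, over the 6 libraries and against 208 other miRNAs. Nearest to miR-128 was miR-96, at 0.16, with 399 normalized reads in the MO-Tbx5a-labelled library and 176 in the MO-Ct-labelled library at 48 hpf, and next came miR-26b at 0.18. miR-153a was nearest to miR-2188-3p at 0.14 and miR-138 at 0.25, and miR-153c to miR-199-3p and miR-724, both at 0.19. miR-153b had other neighbours, miR-141 at 0.13 and miR-200c at 0.14, and miR-219 had miR-193b at 0.14 and miR-499 at 0.19. The distances were 0.27 from miR-129-5p to miR-125b and 0.38 to miR-217, and 0.13 from miR-129-3p to miR-732 and 0.17 to miR-100. Among the members themselves the closest were miR-153a and miR-129-3p at 0.21 and the farthest miR-153b and miR-129-5p at 1.27. The distances of miR-129-3p are uncertain, since it had 2 to 4 reads in each library of 24 hpf and the plus 2 flattens such a profile. miR-153a and miR-153c were 0.32 apart, whereas miR-153b was 0.78 from miR-153a and 0.91 from miR-153c, so the members did not form 1 profile. These distances describe 6 libraries that share 1 scaling, and carry no test.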

How the data were processed

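Small RNA reads of 6 libraries (2 per morpholino at 24 hpf, 1 at 48 hpf) were demultiplexed by the authors with CASAVA 1.8, trimmed, kept at 17 to 38 bases, mapped to zebrafish precursors of miRBase release 20 with miRExpress at 95% identity, summed per miRNA and divided by DESeq size factors. The deposited signal values are therefore normalized reads and not raw reads, and no count test was run. The genome build is not given in the sources used here. Every library had its own step, taken as 1 read to estimate depth: at least 99.65% of values above 0 were whole in it to 0.02 reads. The 286 rows of the table were averaged to 230 mature miRNAs. The batches of a group at 24 hpf differed by more than sampling noise (chi-square per degree of freedom 87.5 for MO-Tbx5a and 97.0 for MO-Ct).

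limma 3.58.1 in R 4.3.3 was fitted with a variance trend, two-sided, with Benjamini-Hochberg adjustment, and tested on simulated data. The simulation gave all miRNAs the same dispersion and changed only the more abundant ones. It checks that the fit runs as meant, and not its error rate in these libraries. At 48 hpf a miRNA was counted at a ratio of 2 among those with at least 10 normalized reads in 1 library. Tables and figures were made with Python 3.11.15, numpy 2.4.6, pandas 2.3.3, scipy 1.17.1 and matplotlib 3.10.9. The miRNAs named are all members, the 2 nearest profiles of each, and the 2 most abundant of each list, of which those that bear on a result are given with values. Members and lists were chosen with earlier results of these data known. Alternatives were other scalings, pseudocounts, filters, fits and left-out libraries. Exchanging the 48 hpf labels was added after the data were seen.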

Additional observations from a re-analysis of the deposited data

Results flagged for a closer look

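For 4 members the interaction term of limma passed in the main fit, so the difference of MO-Tbx5a over MO-Ct embryos was called unlike at 48 and 24 hpf. The spread in that fit is pooled over all miRNAs tested. Fewer members passed with a batch of 24 hpf left out or without the variance trend. The value at 48 hpf minus that at 24 hpf was 0.79 for miR-128, 0.98 for miR-153a and 1.43 for miR-153c on the log2 scale, with a ratio above 1 at 48 hpf in each. For miR-153b it was -0.84. The log2 ratio between the libraries labelled MO-Tbx5a and MO-Ct at 48 hpf was 0.65 for miR-128, 1.04 for miR-153a, 0.89 for miR-153c and -0.66 for miR-153b. At 24 hpf the log2 difference of MO-Tbx5a over MO-Ct embryos was -0.14 for miR-128, 0.05 for miR-153a, -0.53 for miR-153c and 0.19 for miR-153b. Of all 214 miRNAs tested 33.2% passed this test, so the 4 of 6 members stand beside a broad difference between the stages. Each value at 48 hpf comes from 1 library per morpholino, and its sign is that of the labels. With the labels exchanged the interaction values were -0.51 for miR-128, -1.09 for miR-153a, -0.36 for miR-153c and 0.47 for miR-153b. Of these 4 only miR-153a then still passed.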

How the results depend on the processing

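Members called. For stage, 3 members were called on the deposited values, 5 under median-ratio scaling, 7 with library totals, 5 with totals without miR-430, 5 with 1 mean per group, 4 with the 48 hpf labels exchanged and 3 to 6 with a library left out. Between the morpholinos at 24 hpf the number was 0 on the deposited values, 1 with median-ratio size factors and 0 to 1 with a library left out. The interaction called 4, against 2 with totals without miR-430, 1 with no variance trend, 0 to 2 with a library left out and 2 with the 48 hpf labels exchanged, a setting chosen after seeing the data. Those 2 were miR-153a with its sign turned and miR-219 (limma, adjusted p = 0.0311), which had not passed. At 48 hpf 2 members passed a 2-fold ratio and 6 a 1.5-fold ratio.

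All miRNAs called. At 24 hpf 16 were called, against 0 when scaled to library totals (38 by unadjusted p), 2 with totals without miR-430, 1 with no variance trend and 0 to 14 with a library left out. For the interaction the number was 71, against 47 with library totals, 30 with no variance trend and 15 to 58 with a library left out. For stage it was 112 of 214, against 103 of 216 under median-ratio scaling, 166 of 221 with library totals, 96 of 216 with totals without miR-430, 148 with 1 mean per group, 119 with the labels exchanged and 86 to 149 with a library left out. With median-ratio size factors 17 of 210 were called at 24 hpf. The interaction called 54 of 216 with totals without miR-430 and 48 of 214 with the 48 hpf labels exchanged. At 48 hpf 56 passed a 2-fold and 105 a 1.5-fold ratio.

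Batch numbers. Batches 1 and 2 at 24 hpf share a number, and nothing says that they share a day. The batch differences of the morpholinos had a correlation of 0.28 over 210 miRNAs, a single value from 2 pairs. With the replicate block, 39 miRNAs (12 higher, 27 lower) and 2 members were called at 24 hpf, miR-153c at -0.53 (limma, adjusted p = 0.00284) and miR-219 at -0.47 (limma, adjusted p = 0.00218). Over its alternatives the adjusted p of miR-153c at 24 hpf ranged from 0.00284 to 0.558. With the block in the stage fit, miR-129-5p had 1.86 and miR-153a 1.04, both at an adjusted p of 0.0607 by limma, and miR-219 had 0.86 at an adjusted p of 0.0340.

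Signs that turned. The stage value of miR-153b was -0.05, against 0.26 under median-ratio scaling, 1.34 with library totals, 0.43 with totals without miR-430, 0.37 in MO-Ct libraries alone and -0.47 to 0.37 with a library left out. At 24 hpf miR-153a had -0.017 with median-ratio size factors and -0.10 to 0.21 with a library left out, miR-128 had 0.049 with totals without miR-430 and -0.29 to 0.010 with a library left out, and miR-129-5p had -0.85 to 0.36 with a library left out. The interaction of miR-219 was -0.10 with totals without miR-430 and -0.23 to 0.42 with a library left out. With the 48 hpf labels exchanged the interaction values were -0.51 for miR-128, -1.14 for miR-129-5p, -1.09 for miR-153a, 0.47 for miR-153b and -0.36 for miR-153c. The stage estimates are the same in either labelling and their tests are not: miR-128 had an adjusted p of 0.0370 by limma with the labels exchanged. The causes were not tested.

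Limits. The 48 hpf comparison has no replicates. miR-129-3p has 2 to 4 reads in each library of 24 hpf, and miR-129-5p 7 to 18, so differences between the morpholinos at 24 hpf were hardly detectable in these arms at this depth. The split between the miR-153 copies and their sum depend on how near-identical reads were assigned.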
